A study of Homo sapiens with 64 samples.

Results

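The levels of mRNAs over time were measured in HEK293T cells that had received a control small interfering RNA (siRNA), named siCTRL, with poly(A) RNA sequenced at 0, 6, 12 and 24 h. The course consists of 8 libraries, 2 at each hour, out of 64 in the series, and was taken as all columns of the siCTRL HEK293T table of read counts. HEK293T cells derive from human embryonic kidney and express the SV40 large T antigen. The design of the series gives mRNA half-life as the purpose of the hours. The sources used here do not say whether, or by what means, new transcription was stopped. All 8 libraries carry the same siRNA, so that no hour stands for untransfected cells, and a replicate number is the only label that sets the 2 libraries of an hour apart. Nothing in the labels says that these came from separate cultures, and p-values then measure only the spread between libraries, which may be technical. The courses set beside it, with the same hours and 2 libraries at each, came from HEK293T cells with siFBL or siNOP56, siRNAs against FBL (fibrillarin, the methyltransferase of box C/D small nucleolar ribonucleoproteins) and NOP56 (a scaffold protein of the same particle).

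Cytoplasmic mRNAs are usually lost by shortening of the poly(A) tail, mainly by the CCR4-NOT complex, followed by removal of the cap and digestion from the 5′ end, or by digestion from the 3′ end by the exosome. Messengers of transcription factors and of signalling proteins are often short-lived, and messengers of metabolic enzymes and of the ribosome are often long-lived. Some short-lived mRNAs carry AU-rich elements, bound by proteins such as ZFP36, or a motif, TGTANATA in DNA letters, of the Pumilio proteins, which recruit deadenylases. These properties are known from other studies and were not measured here.

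The libraries held 15957331 to 18299069 counts over 25207 gene symbols, of which 5580 had no count in any of the 8 and 14390 passed the filter on low counts and were tested. Levels are given as CPM (counts relative to the library total) scaled with trimmed mean of M-values (TMM) factors, and changes as log2 differences from edgeR's quasi-likelihood test with standard errors, called at a Benjamini-Hochberg adjusted p under 0.05 over all genes tested. A count table without an external standard gives each gene's share of a library and not its amount per cell. Fewer cells and less RNA per cell therefore cannot be told apart. A higher value with TMM at a later hour is higher relative to the level that TMM holds fixed. Only the change with total counts alone is a change in share. The TMM factors ran from 1.229 and 1.228 at 0 h to 0.844 and 0.875 at 24 h, and the number of genes with a count was 17453 and 17460 at 0 h and 16646 and 16808 at 24 h. The choice of scaling sets where 0 lies. The median change of all genes at 24 h was -0.19 with TMM and -0.04 with edgeR's relative log expression factors. It was -0.70 with total counts alone and -1.23 when the summed ribosomal protein mRNAs were held level. Of the 19 HEK293T markers, 18 averaged at least 1 CPM and SOX11 had no count, and their summed level was 2050 to 2070 CPM of the total counts at 0 h and 1170 to 1250 CPM at 24 h. The prostate markers, checked because the series also holds a prostate line, summed to 34.3 to 102 CPM with KLK3 and TRPM8 at 0, the leukocyte markers to 10.5 to 14.6 CPM with PTPRC, MS4A1 and FCGR3A at 0, and the fibroblast markers to 33.6 to 60.2 CPM, nearly all COL1A1, with FAP at 0.

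Many genes had changed by 6 h. At 6 h against 0 h, 10355 genes (72% of those tested) were called, 4925 higher and 5430 lower. At 12 h against 0 h there were 11167 (77.6%), 5175 higher and 5992 lower, and at 24 h against 0 h there were 11601 (80.6%), 5033 higher and 6568 lower. The loss was the larger side in size. At 6 h, 2934 called genes were lower by more than 2-fold and 940 by more than 4-fold, whereas 351 were higher by more than 2-fold and 25 by more than 4-fold. Over all genes tested, the hour means at 0 h and 6 h correlated at 0.934 on the log2 scale, those at 6 h and 12 h at 0.992 and those at 12 h and 24 h at 0.990, a description across 14390 genes of the same libraries. Higher genes made up 47.6% of the calls at 6 h and 43.4% of those at 24 h with TMM. With total counts alone they made up 30.6% at 6 h and 26.8% at 24 h, and with ribosomal protein mRNAs held level 1.37% at 6 h and 9.86% at 24 h.

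The courses took several shapes. A straight line over the hours gave 8888 called slopes, 3813 upward and 5075 downward (61.8% of genes), but in 9203 genes (64%) the rate between 0 and 6 h differed from the rate between 6 and 24 h. In 4581 of these the early rate was the lower one, as in genes that fell first and then held a low level, and in 4622 it was the higher one. With ribosomal protein mRNAs held level it was the lower one in 9368 genes and the higher one in 141. The contrast of 24 h against 6 h, added after values had been seen, sorted the courses further. Of the 5430 genes lower at 6 h, 2280 fell further by 24 h, 2695 showed no called change and 455 rose. Of the 4925 genes higher at 6 h, 2834 rose further, 1389 showed no called change and 702 fell. Another 1036 genes fell late only, in the sense that 24 h was called lower than 6 h and 6 h was not called against 0 h, and 2431 were called in neither interval. These class sizes depend on the scaling and on the fit. Between 24 h and 6 h 54.7% of genes were called here. In a fit that also held the siFBL and siNOP56 libraries it was 19.8%.

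**Figure D1:**
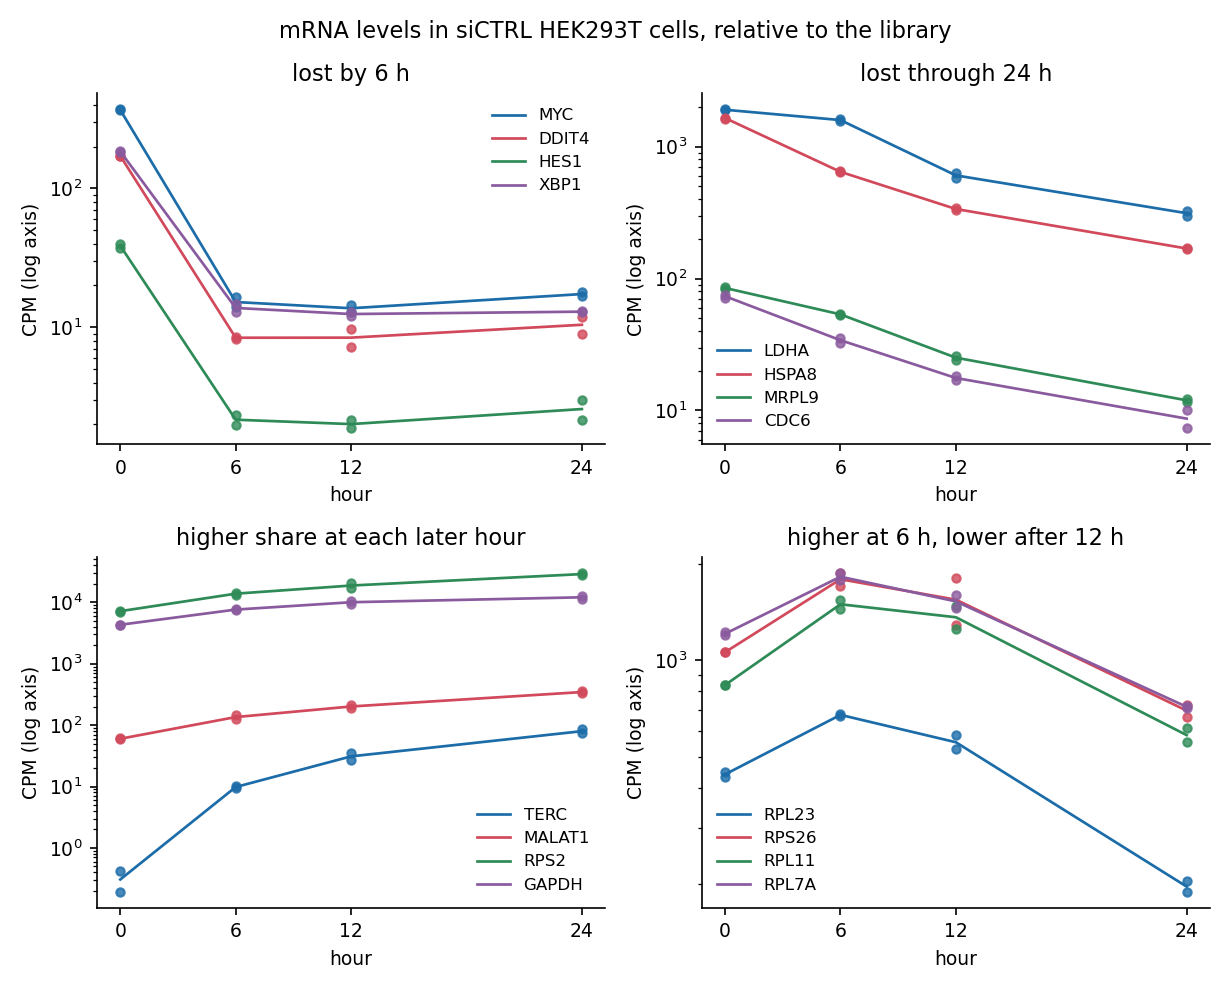
Levels of 16 genes in each library on a log10 axis of CPM against hours, points being the 2 libraries of an hour and lines joining hour means. MYC, DDIT4, HES1 and XBP1 are low from 6 h on, LDHA, HSPA8, MRPL9 and CDC6 fall between 6 and 24 h, TERC, MALAT1, RPS2 and GAPDH are higher at each later hour, and RPL23, RPS26, RPL11 and RPL7A are, with TMM scaling, higher at 6 h and lower again at 24 h.

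Messengers of many transcription regulators and signalling proteins were lost by 6 h. MYC, the growth-promoting transcription factor, had 365 and 371 CPM at 0 h, 16.5 and 13.9 at 6 h, 14.5 and 13 at 12 h and 17.8 and 16.9 at 24 h. The libraries at 6 h and later lay far below both at 0 h and did not overlap with them, and no further change was called. The change was -4.60 ± 0.08 at 6 h (adjusted p = 2.3e-20) and -4.41 ± 0.08 at 24 h against 0 h, with 0.19 ± 0.10 between 24 h and 6 h (adjusted p = 0.12), which was 0.31 without replicate 1 of 6 h (adjusted p = 0.044). DDIT4, an inhibitor of the growth kinase mTORC1, had 171 and 172 CPM at 0 h, 8.58 and 8.24 at 6 h, 9.66 and 7.19 at 12 h and 8.91 and 11.9 at 24 h. The change was -4.35 ± 0.10 at 6 h. HES1, a repressor downstream of Notch, had 37.5 and 39.8 CPM at 0 h, 2.34 and 1.98 at 6 h, 2.15 and 1.87 at 12 h and 2.15 and 3 at 24 h. The change was -4.16 ± 0.14 at 6 h. In both genes every later library lay far below both libraries at 0 h. XBP1, the transcription factor of the endoplasmic reticulum stress response, had 184 and 185 CPM at 0 h, 14.6 and 12.9 at 6 h, 12.9 and 12 at 12 h and 12.9 and 13.1 at 24 h. It changed by -3.74 ± 0.08 at 6 h. CTCF, the insulator protein that organises chromatin loops, had 91.2 and 90.9 CPM at 0 h, 9.38 and 9.54 at 6 h, 7.38 and 8.77 at 12 h and 6.69 and 6.56 at 24 h. Unlike XBP1 it fell further after 6 h, by -0.51 between 24 h and 6 h (adjusted p = 0.002). At 6 h SNAI2, a regulator of cell migration, changed by -4.17 ± 0.11, ID2, an inhibitor of basic helix-loop-helix factors, by -3.85 ± 0.10, the phosphatase PPM1D by -3.81 ± 0.14, and CCDC71, a gene with no role that is stated here, by -4.02 ± 0.13.

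Lists of short-lived and regulatory genes fell in most of their members. In the list of immediate early and short-lived mRNAs, 43 of 50 tested members were lower at 6 h and 2 higher, with a median of -2.03, beside 37.7% lower and 34.2% higher over all genes tested and a median near 0. At 24 h against 0 h, 38 were lower and 4 higher, with a median of -1.63, beside 45.6% lower and 35% higher over all genes. DUSP1, a phosphatase that switches off MAP kinases, had 22 and 19.7 CPM at 0 h, 1.26 and 1.86 at 6 h, 1.77 and 2.81 at 12 h and 1.04 and 1.56 at 24 h. NFKBIA, the inhibitor of NF-κB, had 17.3 and 21.1 CPM at 0 h, 1.09 and 1.58 at 6 h, 1.26 and 1.4 at 12 h and 1.63 and 1.38 at 24 h. Both were near 1 to 3 CPM from 6 h on. The 2 members higher at 6 h were EGR1 and HES4, and the 4 higher at 24 h were these, ZFP36 and FOSB, an AP-1 subunit that changed by 0.67 ± 0.21, a call lost without replicate 1 of 0 h (adjusted p = 0.099) or of 24 h (adjusted p = 0.18). EGR1, an immediate early factor, had 6.39 and 6.63 CPM at 0 h, 8.86 and 9.94 at 6 h, 11.3 and 7.83 at 12 h and 12.3 and 11.9 at 24 h. It changed by 0.89 ± 0.15 at 24 h. HES4, a relative of HES1, had 112 and 112 CPM at 0 h, 148 and 137 at 6 h, 168 and 154 at 12 h and 187 and 182 at 24 h. It changed by 0.71 ± 0.06. ZFP36, the AU-rich element binding protein, had 8.07 and 8.31 CPM at 0 h, 7.09 and 7.85 at 6 h, 8.52 and 7.89 at 12 h and 11.4 and 13.2 at 24 h. It changed by -0.13 ± 0.14 at 6 h (adjusted p = 0.39) and 0.59 ± 0.13 at 24 h. With ribosomal protein mRNAs held level the changes at 24 h turned negative, at -0.15 for EGR1, -0.33 for HES4 and -0.45 for ZFP36. With total counts alone the change at 24 h was not called for ZFP36, at 0.08 (adjusted p = 0.60), or for FOSB, at 0.15 (adjusted p = 0.50).

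In the list of signalling inhibitors with feedback, which also holds pathway targets such as GLI1, 24 of 29 tested members fell at 6 h. None was higher, and the median was -1.50, beside 37.7% lower and 34.2% higher over all genes tested. At 24 h 23 were lower and 1 higher, with a median of -1.43, beside 45.6% and 35% of all genes. The member that was higher was GLI1, a Hedgehog target, at 0.46 ± 0.21, a call lost without replicate 1 of 0 h (adjusted p = 0.30), replicate 1 of 6 h (0.052) or replicate 2 of 24 h (0.30). AXIN2, a scaffold that limits Wnt signalling, changed by -2.56 ± 0.17 at 6 h. PTCH1, the Hedgehog receptor that restrains the pathway, changed by -1.99 ± 0.10 at 6 h and -2.48 ± 0.12 at 24 h. GLI2, a transcription factor of the same pathway, changed by -2.67 ± 0.13 at 6 h and -3.15 ± 0.14 at 24 h, and HEY1, a Notch target, by -2.95 ± 0.09 and -2.62 ± 0.09. In the list of HOX and developmental transcription factors 42 of 46 tested members were lower at 6 h and 1 higher, with a median of -1.07, and 41 were lower and 2 higher at 24 h. The exceptions at 24 h were HOXB9, at 0.29 ± 0.06, and HOXC4, at 0.32 ± 0.08. The exception at 6 h was HOXD9, at 0.21 ± 0.08, a call lost without replicate 1 of 0 h (adjusted p = 0.050), replicate 2 of 0 h (0.19) or replicate 2 of 6 h (0.22). With total counts alone all 3 were negative, as was GLI1. SOX9, a developmental factor, changed by -3.15 ± 0.17 at 6 h and -2.35 ± 0.16 at 24 h.

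The KRAB zinc finger genes, a large family of repressors of transposable elements, fell by less but almost as a whole. At 6 h 79 of 98 tested members were lower and 3 higher, with a median of -0.99. The shares over all genes tested were 37.7% lower and 34.2% higher. At 24 h 82 of the 98 were lower and 2 higher, with a median of -1.37, beside 45.6% and 35% of all genes. The 3 higher at 6 h were ZNF331, ZNF621 and ZNF738, and of these ZNF331 and ZNF738 were the 2 higher at 24 h. ZNF331 had 0.48 and 0.374 CPM at 0 h, 1.49 and 1.19 at 6 h, 0.757 and 0.935 at 12 h and 2.08 and 1 at 24 h. The calls at 6 h of the other two were lost without either library of 0 h and without 1 library of 6 h, replicate 2 for ZNF621 and replicate 1 for ZNF738 (adjusted p between 0.059 and 0.21), and ZNF621 turned to -0.09 with total counts alone. ZNF146 had 85.6 and 83 CPM at 0 h, 21.7 and 28.2 at 6 h, 17.6 and 19.9 at 12 h and 17.2 and 17.3 at 24 h. The 0 h libraries overlapped with no later hour, and the change at 24 h was -2.29 ± 0.10. ZNF274, a member that binds the clusters of these genes themselves, had 14.7 and 13.8 CPM at 0 h, 3.89 and 3.84 at 6 h, 4.67 and 4.09 at 12 h and 4.01 and 4.19 at 24 h. Members of this family resemble each other, and the sources used here do not say how reads shared between them were counted. Of the clock genes, 14 of 17 were lower at 6 h and none higher, with a median of -1.02. BHLHE40, a repressor in the clock, had 82.7 and 81.5 CPM at 0 h, 6.92 and 7.9 at 6 h, 7.64 and 7.83 at 12 h and 8.99 and 9.31 at 24 h. PER1, a period protein that closes the feedback loop, had 73.3 and 73.4 CPM at 0 h, 22.8 and 23.9 at 6 h, 19.2 and 19.2 at 12 h and 21.5 and 21.1 at 24 h. Both reached their low level by 6 h.

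Part of the lost group had a higher value at 24 h than at 6 h with TMM. Of the 50 immediate early and short-lived mRNAs, 22 were higher at 24 h than at 6 h and 1 was lower, beside 26.8% higher and 27.9% lower over all genes tested. The 1 was ATF3, a stress-induced repressor, which changed by -0.96 ± 0.12. JUNB, a subunit of the AP-1 factor, had 35.1 and 33.9 CPM at 0 h, 11.4 and 9.03 at 6 h, 11.1 and 10.9 at 12 h and 16.5 and 18.7 at 24 h. CEBPB, a transcription factor of differentiation, had 26 and 29.1 CPM at 0 h, 3.89 and 3.5 at 6 h, 4.86 and 3.97 at 12 h and 6.02 and 7.19 at 24 h. IER5, an immediate early response gene, had 43.6 and 40.6 CPM at 0 h, 11.1 and 7.79 at 6 h, 13 and 12.4 at 12 h and 16.3 and 17.6 at 24 h. These were named after their values had been seen, as examples of this course. All 3 were lowest at 6 h or 12 h and remained below 0 h at 24 h, with changes between 24 h and 6 h of 0.79 ± 0.12 for JUNB, 0.85 ± 0.18 for CEBPB and 0.84 ± 0.13 for IER5. In a fit of all 24 libraries 3 of 51 members of the list were called higher at 24 h than at 6 h in siCTRL and none in siFBL or siNOP56, with medians of 0.41 in siCTRL, 0.14 in siFBL and 0.09 in siNOP56. The median of the list against 0 h, with total counts alone, was -2.29 at 6 h and -2.15 at 24 h. In the siCTRL libraries alone a rise of 0.78 was called for SNAI2 (adjusted p = 0.00036).

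**Figure D2:**
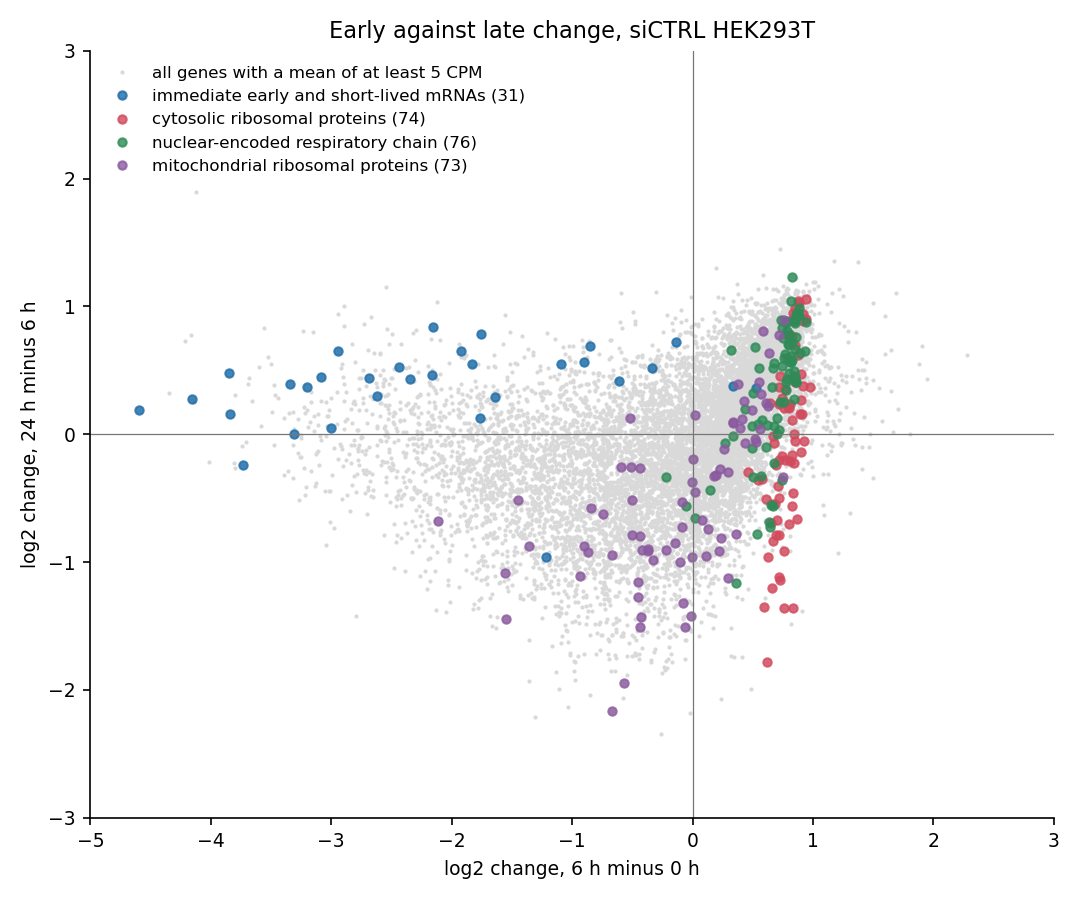
Change at 6 h against 0 h (horizontal, log2) and at 24 h against 6 h (vertical, log2) of the 10501 genes averaging 5 CPM or more, 1 gene (TERC) lying outside the axes, with the members of 4 lists in colour. Both axes share the 6 h libraries. The short-lived mRNAs lie to the left, ribosomal protein and respiratory chain genes to the right, and mitochondrial ribosomal protein genes reach far down.

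The 3′ UTRs of the lost genes can be set beside their courses. The sequences are transcript sequences from GENCODE 29, and the stretches of 30 bases or fewer are shown because they hold the Pumilio motif, with N for any base, in capitals. The first group holds genes that fell by 6 h and the last one, ATF4, is 1 of several genes with the motif that rose.
HES1 (chromosome 3, position 192 of 499 bases of the 3′ UTR): tgcactatattTGTATATAttttatatgtt
NFKBIA (chromosome 14, position 429 of 502): cctgtaaatggTGTACATAatgtattgttg
CTCF (chromosome 16, position 551 of 1304): atggtcaagctTGTAAATAactttttttac
DNAJB1 (chromosome 19, position 906 of 1170): tgtggaacgtcTGTAAATAtgtttttataa
CDK7 (chromosome 5, position 99 of 295): agaagtgagttTGTAAATAttctacacatg
PUM2 (chromosome 2, position 425 of 2894): gtttatagagaTGTATATAgaattatagtc
ATF4 (chromosome 22, position 30 of 81): gtcaatgtgctTGTACATAgagtgctgtag
DNAJB1, a co-chaperone of HSP70, had 142 and 138 CPM at 0 h, 13.4 and 13.3 at 6 h, 12.2 and 11.7 at 12 h and 15.2 and 14.1 at 24 h. CDK7, the kinase of the general transcription factor TFIIH, had 16 and 16.3 CPM at 0 h, 1.83 and 2.26 at 6 h, 1.26 and 1.4 at 12 h and 1.78 and 2 at 24 h. ATF4, the transcription factor of the integrated stress response, had 714 and 716 CPM at 0 h, 1006 and 979 at 6 h, 1334 and 1213 at 12 h and 1735 and 1615 at 24 h. This gene with the motif rose in share. Other genes named here whose 3′ UTRs hold the motif also rose with TMM, EGR1 by 0.89, SREBF2 by 1.55 and ZNF738 by 0.66 at 24 h.

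The AU-rich nonamer TTATTTATT was searched in the same way. It contains the pentamer ATTTA, so that the counts of the 2 motifs overlap. The stretches below show it, in capitals, in 2 genes that fell, in ZFP36 and in ENO2.
DUSP1 (chromosome 5, position 101 of 672 bases of the 3′ UTR): gggctggtccTTATTTATTtaacttcaccc
PER1 (chromosome 17, position 343 of 596): ggggctgcacTTATTTATTgcggggagaca
ZFP36 (chromosome 19, position 507 of 713): tatgacgactTTATTTATTctaatatgatt
ENO2 (chromosome 12, position 492 of 896): tttagtgtatTTATTTATTtatttatttta
DUSP1 and PER1 were lower at every hour after 0 h. ZFP36 was not called lower at 6 h with TMM, but it was with total counts alone, at -0.39 (adjusted p = 0.017), and with ribosomal protein mRNAs held level, at -0.92 (adjusted p = 6.3e-05). ENO2, the neuronal form of the glycolytic enzyme enolase, had 35.2 and 34.4 CPM at 0 h, 63.6 and 66.3 at 6 h, 90.4 and 87.1 at 12 h and 123 and 112 at 24 h. Its share was higher at each later hour.

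Across genes the Pumilio motif went with loss. Of 14390 genes tested, 13368 (92.9%) matched a GENCODE gene by symbol, and 12533 (87.1%) had a protein-coding transcript with a 3′ UTR, 1 transcript per gene being used. Motifs were searched on the mRNA strand, and TGTANATA was present in 27.9% of these 3′ UTRs, TTATTTATT in 8.49% and ATTTA in 69.8%. Of the 9032 genes without TGTANATA, 32.1% were lower and 41.9% higher at 6 h, with a median of 0.15. Of the 2253 genes with 1 copy, 52.7% were lower and 23.2% higher, with a median of -0.34, and of the 1248 with 2 or more copies, 63.1% were lower and 14.8% higher, with a median of -0.64. At 24 h against 0 h the medians were 0.05 with no copy, -0.74 with 1 and -1.11 with 2 or more. Genes with 1 or more copies were lower at 6 h more often than genes with none in each of 4 equal classes of 3′ UTR length. In the shortest class, with a median length of 231 bases, 56.1% of genes with the motif and 23.8% of those without were lower at 6 h. In the longest, with a median of 3783 bases, these were 55% with the motif and 41.5% without. These are descriptions, since genes are no replicates, and a match in the letters is not a bound site.

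AU-rich letters showed a flatter relation. The share of genes lower at 6 h was 25.9% with no ATTTA, 38% with 1 to 2, 48.2% with 3 to 5 and 49.1% with 6 or more. For TTATTTATT the median at 6 h was 0.03 with no copy, -0.34 with 1 and -0.34 with 2 or more. By class of 3′ UTR length, from shortest to longest, the share lower at 6 h with the nonamer was 45.5%, 37.7%, 52.1% and 52.8%. Without it the shares were 25.7%, 37.8%, 41.8% and 48.2%. Of the 49 short-lived mRNAs with a 3′ UTR, 24.5% held TTATTTATT and 38.8% held TGTANATA. In the list of signalling inhibitors with feedback 55.2% of the 29 members held TGTANATA, and of the 17 clock genes 64.7% did. Other lists that mostly fell held it less often, 30.4% of the 46 HOX and developmental factors and 11.8% of the 17 genes of N6-methyladenosine with a 3′ UTR. Of the 77 ribosomal protein genes 10.4% held it, in 3′ UTRs with a median length of 90 bases, and none of the 20 aminoacyl tRNA synthetases did.

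The density of exon junctions also went with the course. Coding transcripts were split into 4 equal classes. In the class with the fewest junctions, a median of 0.731 per kb, 62.1% were lower and 16.2% higher at 6 h, with a median of -0.74. The next classes had 42.8% and 30.5% lower. The class with the most junctions, a median of 5.75 per kb, had 19.8% lower and 53.8% higher, with a median of 0.35. The 278 coding transcripts with 1 exon had a median of -1.47. Across 12654 genes, Spearman's rho of junctions per kb was 0.401 with the change at 6 h against 0 h and 0.079 with the change at 24 h against 6 h. With the change at 6 h, rho of ATTTA copies was -0.254, of transcript length -0.238 and of GC content 0.185. The features share length and base composition with each other, and their separate parts were not tested. In the class with the fewest junctions 66.3% of genes with TGTANATA and 59.7% of those without were lower at 6 h. In the class with the most junctions these were 45.3% with the motif and 15.8% without.

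**Figure D3:**
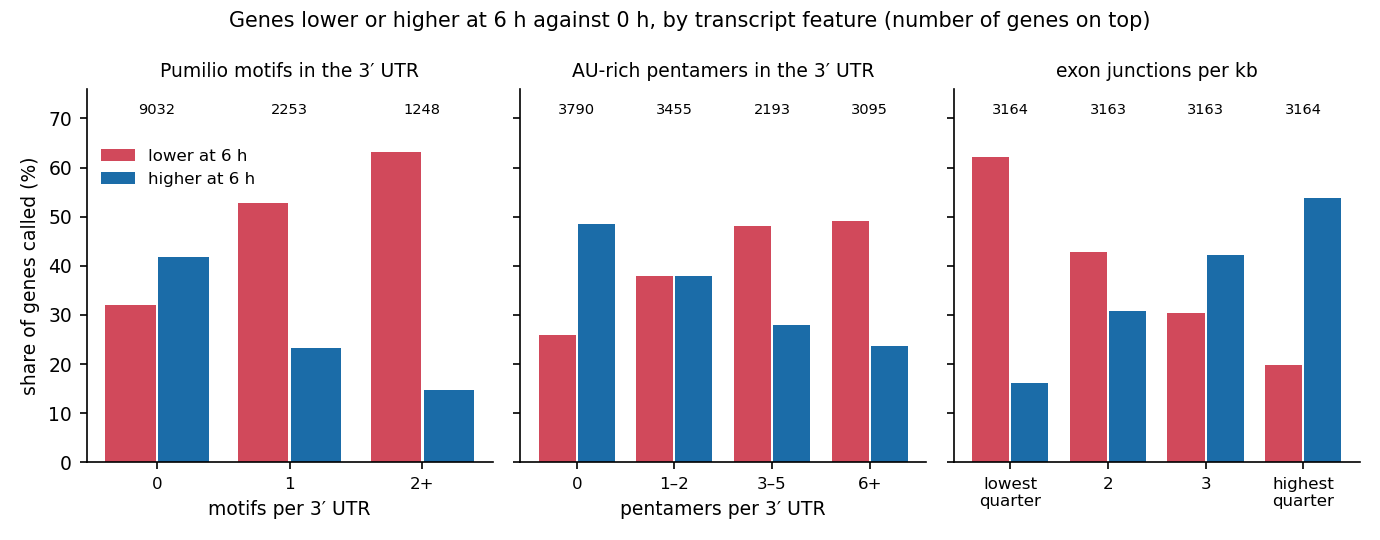
Percent of genes called lower and called higher at 6 h against 0 h, by number of TGTANATA copies and of ATTTA copies in the 3′ UTR and by class of exon junctions per kb, 4 equal classes, in coding genes matched to GENCODE 29. The percent lower is 63.1% with 2 or more TGTANATA copies and 32.1% with none, and 62.1% in the class with the fewest junctions and 19.8% in that with the most.

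A second group of mRNAs went on losing share after 6 h. LDHA, the lactate dehydrogenase of glycolysis, had 1913 and 1893 CPM at 0 h, 1627 and 1551 at 6 h, 636 and 574 at 12 h and 327 and 298 at 24 h. It changed by -0.26 ± 0.07 at 6 h and by -2.61 ± 0.07 at 24 h against 0 h, so that nearly all of the loss lay between 24 h and 6 h, at -2.35 ± 0.07 (adjusted p = 1.3e-15). HSPA8, the constitutive HSP70 chaperone, had 1660.1 and 1631 CPM at 0 h, 638 and 649 at 6 h, 343 and 329.8 at 12 h and 166 and 171 at 24 h. It fell in every interval, by -1.93 between 24 h and 6 h. MRPL9, a protein of the mitochondrial ribosome, had 86.2 and 83.5 CPM at 0 h, 53.3 and 53.7 at 6 h, 26.1 and 24.2 at 12 h and 12.2 and 11.7 at 24 h. The change was -2.83 ± 0.08 at 24 h. EIF4B, which stimulates the helicase of cap-dependent translation, had 561 and 563 CPM at 0 h, 385 and 408 at 6 h, 184 and 193 at 12 h and 121 and 117 at 24 h. The change was -2.24 ± 0.06 at 24 h. CDC6, which loads the replicative helicase, had 75.6 and 71.2 CPM at 0 h, 32.7 and 35.5 at 6 h, 18.4 and 16.9 at 12 h and 10.03 and 7.31 at 24 h. These genes differ from MYC in that both 6 h libraries lay well above both 24 h libraries. GYG1, the primer of glycogen synthesis, and SLIRP, which stabilises mitochondrial mRNAs, were named after their values had been seen. GYG1 had 36.6 and 37 CPM at 0 h, 36 and 36.4 at 6 h, 19.9 and 18.2 at 12 h and 7.58 and 8.38 at 24 h. Its changes were -0.02 ± 0.08 at 6 h (adjusted p = 0.8) and -2.20 ± 0.10 at 24 h. SLIRP had 57.3 and 64.1 CPM at 0 h, 84.6 and 85.7 at 6 h, 57.7 and 52.7 at 12 h and 24.1 and 19 at 24 h. It was higher at 6 h by 0.49 ± 0.08 (-0.30 with ribosomal protein mRNAs held level) and lower at 24 h, at -1.50 ± 0.09.

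Mitochondrial ribosomal protein genes as a list followed this late course. At 6 h 29 of 74 were higher and 30 lower, with a median of -0.01, and at 24 h against 0 h 22 were higher and 48 lower, with a median of -0.74. Between 24 h and 6 h 11 were higher and 50 lower, beside 26.8% and 27.9% of all genes tested. Against 0 h, 34.2% of all genes were higher and 37.7% lower at 6 h, and 35% higher and 45.6% lower at 24 h. The shares of the list at 6 h, 39.2% higher and 40.5% lower, lay near those of all genes. MRPL17 changed by -1.55 ± 0.09 at 6 h and -2.99 ± 0.10 at 24 h, and MRPS26 by -0.57 ± 0.08 and -2.51 ± 0.10. MRPL42 had 69.9 and 71 CPM at 0 h, 121 and 117 at 6 h, 155 and 163 at 12 h and 237 and 207 at 24 h. It was higher at each later hour. Of 31 proteasome genes 22 were higher and 6 lower at 6 h, with a median of 0.31. That median was -0.47 with ribosomal protein mRNAs held level. At 24 h 13 (41.9%) were higher and 14 (45.2%) lower, the latter near the share of all genes. Between 24 h and 6 h 7 were higher and 18 lower. PSMD14, the deubiquitinase of the lid, had 47.3 and 45.1 CPM at 0 h, 46.3 and 42.4 at 6 h, 29.5 and 32.5 at 12 h and 12.9 and 13.3 at 24 h. PSMD6, another lid subunit, changed by -0.42 ± 0.07 at 6 h and -2.09 ± 0.08 at 24 h. Of the factors that build ribosomes, 14 of 72 were higher and 41 lower at 6 h and 9 higher and 54 lower at 24 h, with medians of -0.32 and -1.04. POLR1B, the second-largest subunit of RNA polymerase I, had 75.8 and 73.5 CPM at 0 h, 14.2 and 14.4 at 6 h, 9.4 and 9.99 at 12 h and 6.61 and 7 at 24 h. NOP16, a nucleolar assembly factor, had 41.1 and 41.3 CPM at 0 h, 11.7 and 11.6 at 6 h, 6.75 and 5.9 at 12 h and 4.61 and 4.44 at 24 h. Both fell by 6 h and again after it. NHP2, a protein of box H/ACA particles, was among the 9 that were higher, with 1.15 ± 0.07 at 24 h.

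Messengers of the respiratory chain and of glycolysis were higher in most members at both hours. Those of the cytosolic ribosome were higher by 6 h. With total counts alone the ribosomal list had a median of 0.53 at 6 h and 0.28 at 24 h. Of 76 nuclear-encoded respiratory chain genes, 72 were higher and 1 lower at 6 h, with a median of 0.75, and 65 were higher and 6 lower at 24 h, with a median of 1.21. That median was 0.69 with total counts alone and 0.17 with ribosomal protein mRNAs held level, and at 6 h it was 0.49 and -0.04. The shares over all genes tested were 34.2% higher and 37.7% lower at 6 h and 35% higher and 45.6% lower at 24 h. NDUFA1, a subunit of complex I, had 42 and 42.4 CPM at 0 h, 74.7 and 74.6 at 6 h, 120.3 and 98.2 at 12 h and 187 and 163 at 24 h. COX6A1, a subunit of cytochrome c oxidase, had 244 and 250.4 CPM at 0 h, 477 and 433 at 6 h, 689.8 and 587 at 12 h and 928 and 828 at 24 h. Both had higher values at each later hour, in both replicates. The 1 gene lower at 6 h was UQCRFS1, the iron-sulfur protein of complex III, which changed by -0.22 ± 0.06, a call lost without replicate 2 of 6 h (adjusted p = 0.051), with upper quartile factors (0.091), with relative log expression factors (0.083) and with DESeq2 (0.16). NDUFS4, another subunit of complex I, was an exception, with 10.1 and 11.3 CPM at 0 h, 13.2 and 14.3 at 6 h, 11.7 and 9.59 at 12 h and 6.02 and 6.25 at 24 h. Its change at 24 h was -0.80 ± 0.14. The messengers that the mitochondrial genome itself encodes were not analysed here.

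Of 21 glycolysis genes, 15 were higher and 6 lower at 6 h and 14 higher and 6 lower at 24 h, with medians of 0.72 and 1.33. With ribosomal protein mRNAs held level the medians were -0.07 at 6 h and 0.29 at 24 h. The shares over all genes tested were 34.2% higher and 37.7% lower at 6 h and 35% higher and 45.6% lower at 24 h. GAPDH, often used as a reference gene, had 4314 and 4309 CPM at 0 h, 7716 and 7509.8 at 6 h, 10609 and 9455 at 12 h and 12736 and 11416 at 24 h. The change was 1.49 ± 0.07 at 24 h. PKM, which makes pyruvate, changed by 1.55 ± 0.08 and ALDOC, an aldolase, by 1.79 ± 0.09 at 24 h. HK2, the hexokinase of proliferating cells, fell beside LDHA, with 89.97 and 93.8 CPM at 0 h, 45.5 and 48.7 at 6 h, 31.1 and 33.9 at 12 h and 19.2 and 21.4 at 24 h. Of 19 genes of the citric acid cycle, 18 were higher at 6 h and 15 at 24 h and none was lower, with medians of 0.60 and 0.84, a direction that turned to -0.18 at 6 h and -0.20 at 24 h with ribosomal protein mRNAs held level. MDH2, the mitochondrial malate dehydrogenase, had 637 and 622 CPM at 0 h, 1111 and 1076 at 6 h, 1597 and 1411 at 12 h and 2041 and 2023 at 24 h. IDH2, the mitochondrial isocitrate dehydrogenase, changed by 1.66 ± 0.07 at 24 h.

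Cytoskeletal genes were higher in 22 of 27 at 6 h and lower in 1, and higher in 18 and lower in 6 at 24 h. Their medians of 0.46 and 0.81 turned to -0.33 and -0.23 with ribosomal protein mRNAs held level. The shares over all genes tested were 34.2% higher and 37.7% lower at 6 h and 35% higher and 45.6% lower at 24 h. TMSB10, which binds free actin, had 423 and 401 CPM at 0 h, 895 and 798 at 6 h, 1283 and 959.7 at 12 h and 1836 and 1682 at 24 h. CFL1, which severs actin filaments, changed by 1.95 ± 0.08 at 24 h. ACTB, beta-actin, changed by 1.01 ± 0.06 with TMM and by -0.02 with ribosomal protein mRNAs held level. TUBB4B, a beta-tubulin, had 550.0 and 544 CPM at 0 h, 368 and 348 at 6 h, 261 and 233 at 12 h and 134 and 128 at 24 h. Both 24 h libraries were below all others. Of 33 translation factors, 26 were higher and 5 lower at 6 h, with a median of 0.37. That median was -0.42 with ribosomal protein mRNAs held level. At 24 h 16 (48.5%) were higher and 16 (48.5%) lower, the latter near the 45.6% of all genes. PABPC1, the cytoplasmic poly(A) binding protein, had 1880.4 and 1889 CPM at 0 h, 3169 and 3253 at 6 h, 4439 and 4418 at 12 h and 6889 and 6874 at 24 h. The change was 1.87 ± 0.06 at 24 h, and EEF1A1, the elongation factor that delivers tRNAs, changed by 1.24 ± 0.06. EIF4E, the cap-binding protein, fell to 8.99 and 10.7 CPM at 24 h, against 46.4 and 45.7 CPM at 0 h. Of 20 cytosolic aminoacyl tRNA synthetases, 16 were higher and 3 lower at 6 h and 15 higher and 5 lower at 24 h, with a median of 0.49 at 24 h that was -0.03 with total counts alone and -0.55 with ribosomal protein mRNAs held level. The 3 lower at 6 h, FARSA, RARS and TARS, which charge tRNAs with phenylalanine, arginine and threonine, were lower by more at 24 h, where FARSB and SARS joined them. FARSA had 279.9 and 271 CPM at 0 h, 174 and 173 at 6 h, 109 and 88.3 at 12 h and 61.9 and 55.5 at 24 h. RARS changed by -2.21 ± 0.07 and TARS by -2.02 ± 0.07 at 24 h.

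**Figure D4:**
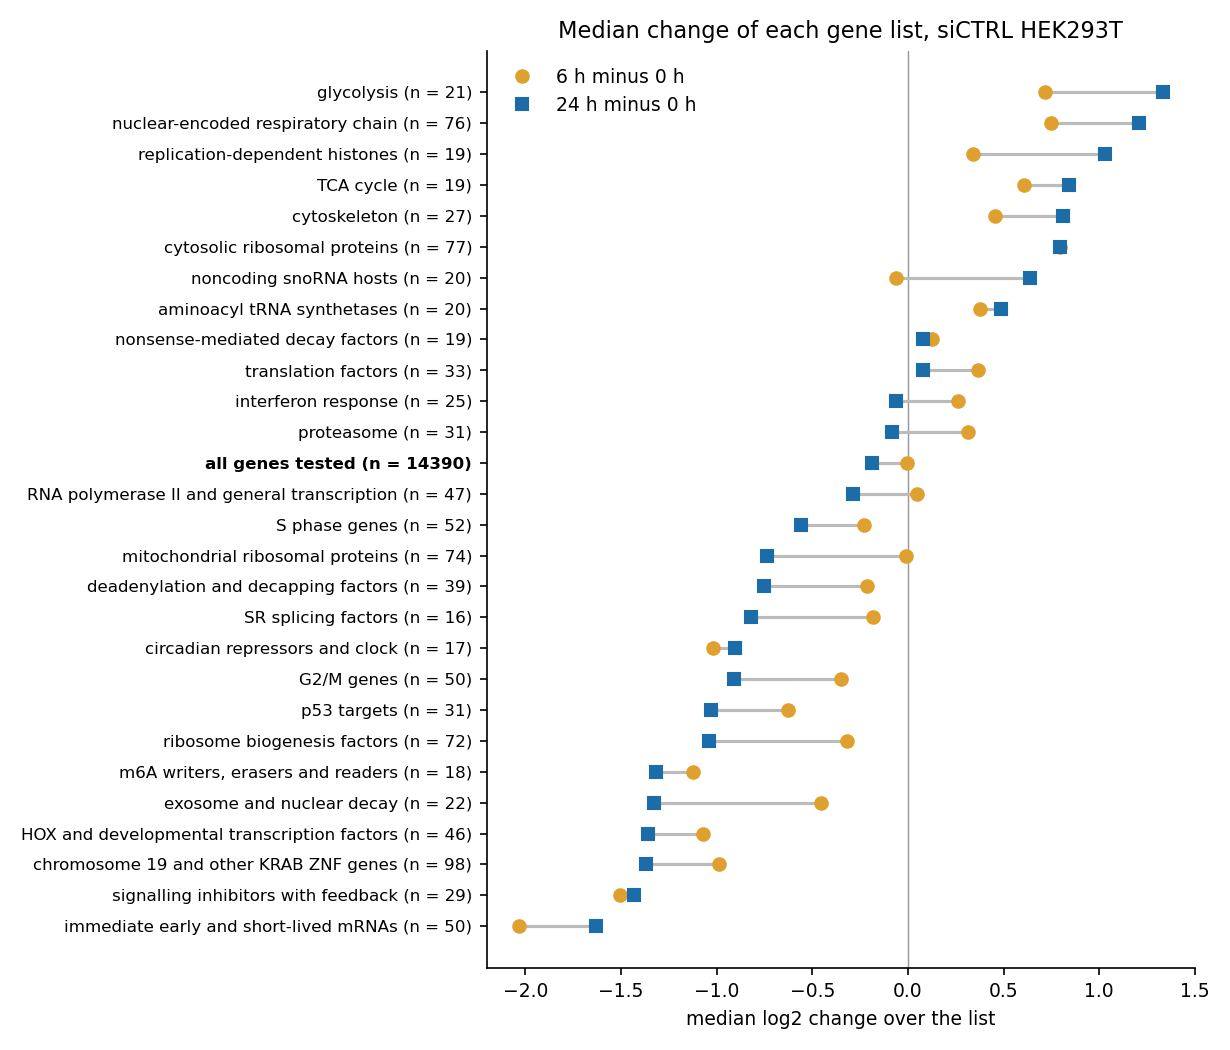
Median log2 change of each gene list at 6 h and at 24 h against 0 h. The immediate early and short-lived mRNAs have medians of -2.03 and -1.63, the nuclear-encoded respiratory chain genes 0.75 and 1.21, and the mitochondrial ribosomal protein genes -0.01 and -0.74. Values are relative to the library with TMM scaling, and the positive medians of ribosomal protein, citric acid cycle, synthetase and cytoskeletal genes at 24 h, and of respiratory chain and glycolysis genes at 6 h, turn negative when ribosomal protein mRNAs are held level.

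The cytosolic ribosomal protein genes rose together and then parted. At 6 h 74 of 77 tested members were higher and 1 lower (median 0.79), beside 34.2% higher and 37.7% lower over all genes. The 1 lower was RPL36A, which had 8.84 and 7.75 CPM at 0 h, 1.03 and 1.02 at 6 h, 1.45 and 1.81 at 12 h and 1.56 and 1.75 at 24 h. It shares its locus with a read-through transcript. At 24 h against 0 h 57 were higher and 11 lower, with a median of 0.80, beside 35% and 45.6% of all genes. The spread had widened. Between 24 h and 6 h 34 were higher, 32 lower and 11 not called, beside 26.8% higher and 27.9% lower over all genes. All 32 that fell late had been higher at 6 h against 0 h, and 33 of the 34 that rose late had been too. RPL23 had 432 and 449 CPM at 0 h, 679 and 671 at 6 h, 582 and 527 at 12 h and 204 and 189 at 24 h. Its changes were 0.62 ± 0.06 at 6 h and -1.78 ± 0.07 between 24 h and 6 h (adjusted p = 2.6e-14). RPL11, which also binds MDM2, had 834 and 839 CPM at 0 h, 1541 and 1447 at 6 h, 1474 and 1249 at 12 h and 612 and 555 at 24 h. RPL7A had 1222 and 1196 CPM at 0 h, 1867 and 1776 at 6 h, 1601 and 1450.0 at 12 h and 709.8 and 720.5 at 24 h. RPS26 had 1061 and 1057 CPM at 0 h, 1872 and 1706 at 6 h, 1801 and 1288 at 12 h and 726 and 665 at 24 h. Its 12 h libraries lay further apart than those of the other hours. This was not particular to RPS26. The squared difference of the 12 h libraries, divided by that from counting alone, averaged 8.3 over 13617 genes. At 0, 6 and 24 h that value was 1.48, 2.34 and 3.59. With ribosomal protein mRNAs held level the changes at 6 h were -0.17 for RPL23, -0.19 for RPL7A and -0.03 for RPS26. In these 4 genes both 24 h libraries lay below both 6 h and both 0 h libraries. RPL11, RPL7A and RPS26 were named after their values had been seen.

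At the other side RPS2 had 7298 and 7048 CPM at 0 h, 14408 and 13243 at 6 h, 20254 and 17278 at 12 h and 30088 and 27582 at 24 h. It took more counts than any other gene in every library, and changed by 0.95 ± 0.08 at 6 h and 1.06 ± 0.08 between 24 h and 6 h. RPLP1, a protein of the ribosomal stalk, had 1152 and 1128 CPM at 0 h, 2235 and 1961 at 6 h, 3369 and 2696 at 12 h and 4335 and 4313 at 24 h. RPL12 changed by 1.02 ± 0.08 and RPSA by 0.99 ± 0.06 between 24 h and 6 h. The difference between members does not depend on how libraries are scaled, since a scaling shifts all members alike, but with ribosomal protein mRNAs held level the median of the list at 24 h against 0 h was -0.25. Ribosomal protein genes have many processed copies in the genome, and the sources used here do not say how shared reads were counted, so that single members carry that uncertainty.

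The same split appeared in libraries that the siCTRL course does not share. In a fit of all 24 libraries, 19 members were called lower and 18 higher between 24 h and 6 h in siCTRL, beside 11.5% lower and 8.31% higher over the 14939 genes tested. In siFBL 13 were called lower and 12 higher, beside 9.23% lower and 8.85% higher over all genes, and in siNOP56 16 lower and 13 higher, beside 9.77% lower and 9.58% higher. In the siFBL course, 29 of the 32 members that fell late in the fit of the siCTRL libraries alone had a negative change between 24 h and 6 h, 13 of them called lower and none called higher, and 33 of the 34 that rose late had a positive one, 11 of them called. In the siNOP56 course all 32 were negative, 16 of them called, and all 34 positive, 13 of them called. Spearman's rho with the siCTRL changes over the 77 genes was 0.949 for siFBL and 0.961 for siNOP56, a description across genes with no test. In this fit RPL23 changed by -1.80 between 24 h and 6 h in siCTRL, -1.06 in siFBL and -1.49 in siNOP56.

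**Figure D5:**
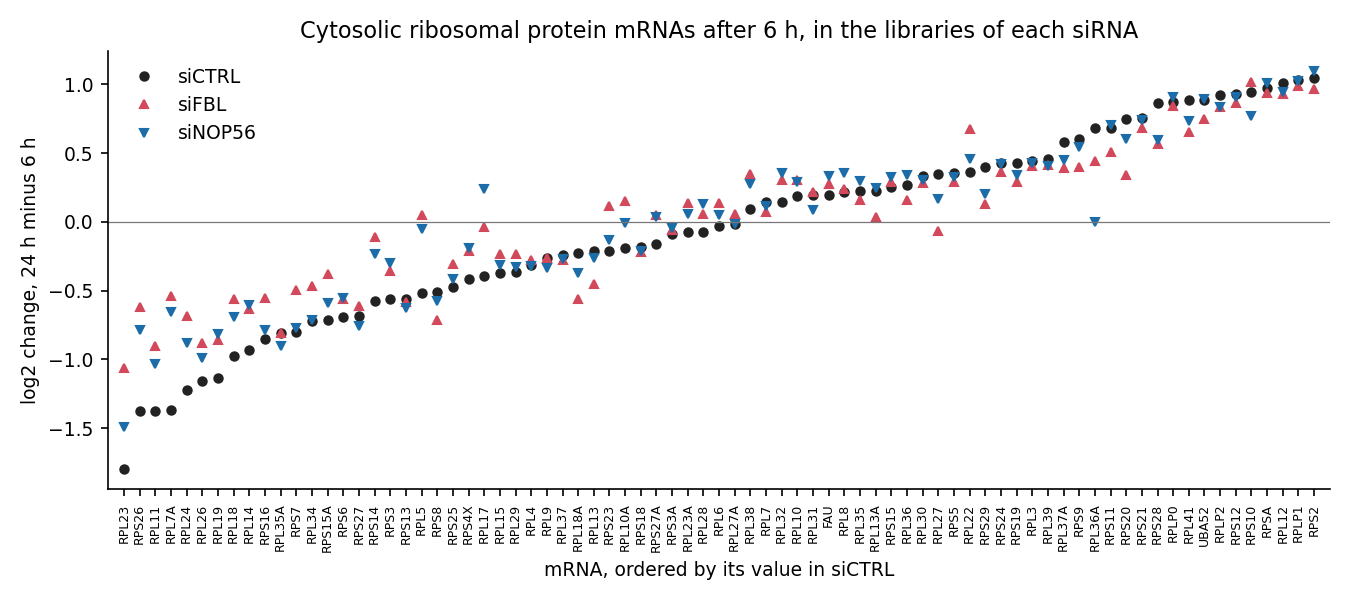
Change at 24 h against 6 h (log2) of 77 ribosomal protein genes in the siCTRL, siFBL and siNOP56 courses, from 1 fit of 24 libraries, genes in the order of their siCTRL value. In this fit 19 genes were called lower and 18 higher in siCTRL, 13 lower and 12 higher in siFBL and 16 lower and 13 higher in siNOP56.

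Noncoding RNAs included the steepest rise, but small nucleolar RNAs mostly fell by 6 h. Of 36 tested SNORD RNAs, the box C/D class, out of 262 listed, 22 were lower and 2 higher at 6 h, with a median of -1.62. Of 24 tested SNORA RNAs, the box H/ACA class, out of 106, 15 were lower and 3 higher, with a median of -1.31. Over all genes tested 37.7% were lower and 34.2% higher. The filter keeps an RNA that reaches the minimum at 1 hour alone, so that members high only at 0 h enter as falls. Between 24 h and 6 h 8 SNORD and 4 SNORA RNAs were higher and none lower, beside 26.8% and 27.9% of all genes. The medians of SNORD and SNORA RNAs at 24 h against 0 h were -0.85 and -0.60. These symbol classes were chosen after values had been seen. TERC, the RNA template of telomerase, had 4 and 9 counts at 0 h, 177 and 168 at 6 h, 547 and 469 at 12 h and 1148 and 1184 at 24 h, or 0.192 and 0.42 CPM at 0 h, 10.1 and 9.48 at 6 h, 34.5 and 27.4 at 12 h and 85.3 and 74 at 24 h. Its fitted change was 4.96 ± 0.29 at 6 h and 7.98 ± 0.20 at 24 h against 0 h. SCARNA2, a guide RNA of Cajal bodies named after its values had been seen, had 0 and 4 counts at 0 h, 22 and 18 at 6 h, 67 and 54 at 12 h and 178 and 162 at 24 h. MALAT1, a nuclear long noncoding RNA, had 59.2 and 60.6 CPM at 0 h, 124 and 146 at 6 h, 187 and 216 at 12 h and 332 and 359 at 24 h. The change was 2.53 ± 0.08 at 24 h, and NEAT1, the scaffold of paraspeckles, changed by 1.13 ± 0.08. TERC, SCARNA2 and the mature end of MALAT1 lack an ordinary poly(A) tail, and the labels give the molecule as poly(A) RNA. RNA45S5, the precursor of ribosomal RNA and likewise no messenger, had 2191 and 2133 CPM at 0 h, 6605 and 6453 at 6 h, 7987 and 7938 at 12 h and 10379.9 and 9761 at 24 h. It has many copies, so that its counts are uncertain. Among protein-coding genes, HMGN5, a nucleosome binding protein, had 35 and 35.8 CPM at 0 h, 87.3 and 96.4 at 6 h, 120.0 and 118 at 12 h and 231 and 235 at 24 h. It changed by 2.72 ± 0.07 at 24 h, and MDK, the growth factor midkine, changed by 2.21 ± 0.11.

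Host transcripts of small nucleolar RNAs went both ways. Of 20 noncoding hosts, 7 (35%) were higher and 8 (40%) lower at 6 h, near the 34.2% and 37.7% of all genes tested. At 24 h 12 (60%) were higher and 7 (35%) lower, beside 35% and 45.6% of all genes. The median at 24 h was 0.64, but 0.12 with total counts alone and -0.40 with ribosomal protein mRNAs held level. Between 24 h and 6 h 15 were higher and 1, TUG1, lower, by -0.68. GAS5 had 59.9 and 60.5 CPM at 0 h, 63.5 and 55.6 at 6 h, 92 and 79.8 at 12 h and 134 and 117 at 24 h. It was higher at 24 h by 1.06 ± 0.08. SNHG6 had 13.5 and 12.4 CPM at 0 h, 19.8 and 19 at 6 h, 34.1 and 25.5 at 12 h and 49.9 and 42.5 at 24 h. SNHG15 had 25.4 and 24.2 CPM at 0 h, 7.32 and 6.83 at 6 h, 5.87 and 7.31 at 12 h and 8.99 and 7.63 at 24 h. SNHG17 changed by -1.88 ± 0.13 at 6 h. These hosts hold small RNA genes in their introns, and GAS5 and SNHG hosts are known targets of nonsense-mediated decay.

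Messengers of the RNA modification and nuclear decay machinery were mostly lower themselves. Of 18 writers, erasers and readers of N6-methyladenosine, 14 (77.8%) were lower and 2 (11.1%) higher at 6 h, with a median of -1.12. At 24 h 15 (83.3%) were lower and 3 (16.7%) higher, with a median of -1.32. The shares over all genes tested were 37.7% lower and 34.2% higher at 6 h and 45.6% lower and 35% higher at 24 h. YTHDF2, the reader that directs methylated mRNAs to decay, had 138 and 134 CPM at 0 h, 18.2 and 20.5 at 6 h, 15.3 and 16.9 at 12 h and 20.1 and 16.8 at 24 h. RBM15B, which guides the methyltransferase, changed by -2.29 ± 0.07 and KIAA1429, the scaffold of its complex, by -1.18 ± 0.09 at 6 h and -2.33 ± 0.10 at 24 h. HNRNPA2B1 had 767 and 773 CPM at 0 h, 1385 and 1418 at 6 h, 1762 and 1778 at 12 h and 2383 and 2315 at 24 h. It was higher at each later hour, as was HNRNPC. METTL3, the catalytic subunit of the methyltransferase, was the third gene higher at 24 h, at 0.16 ± 0.07. Its call was lost without replicate 1 of 0 h, replicate 1 of 6 h or either library of 24 h (adjusted p between 0.058 and 0.31). It was -0.35 with total counts alone. Of 22 exosome and nuclear decay genes, 13 (59.1%) were lower and 3 (13.6%) higher at 6 h. At 24 h 18 (81.8%) were lower and 4 (18.2%) higher. EXOSC9, a subunit of the exosome ring, had 37.2 and 37.2 CPM at 0 h, 12 and 13.5 at 6 h, 7.57 and 8.07 at 12 h and 6.69 and 6.88 at 24 h. TTC37, of the cytoplasmic SKI complex, changed by 1.17 ± 0.08 at 24 h. The others higher at 24 h were SKIV2L, the helicase of the same complex, EXOSC5 and C1D, and of these the call of C1D, at 0.26 ± 0.11, was lost without replicate 2 of 0 h (adjusted p = 0.17) or replicate 1 of 24 h (0.39). These 3 were negative with total counts alone.

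Of 39 deadenylation and decapping genes, 22 (56.4%) were lower and 10 (25.6%) higher at 6 h, with a median of -0.21. At 24 h 30 (76.9%) were lower and 7 (17.9%) higher, with a median of -0.75. The shares over all genes tested were 37.7% lower and 34.2% higher at 6 h and 45.6% lower and 35% higher at 24 h. CNOT6L, a deadenylase of CCR4-NOT, had 25.2 and 25.9 CPM at 0 h, 4.92 and 6.21 at 6 h, 2.84 and 4.09 at 12 h and 3.19 and 2.5 at 24 h. DDX6, the helicase that links deadenylation to decapping, had 115 and 113 CPM at 0 h, 38.4 and 40.1 at 6 h, 19.5 and 25 at 12 h and 18.6 and 19.4 at 24 h. LSM4, of the ring that binds shortened tails, was higher, with 136 and 133 CPM at 0 h, 236 and 236 at 6 h, 334 and 315 at 12 h and 454 and 425 at 24 h. Among factors of nonsense-mediated decay 8 of 19 (42.1%) were higher and 2 (10.5%), SMG8 and RNPS1, lower at 6 h. At 24 h 8 (42.1%) were higher and 7 (36.8%) lower, not far from the shares of all genes. UPF3B, which binds exon junction complexes, had 45.7 and 50.1 CPM at 0 h, 89.4 and 93.7 at 6 h, 112 and 119 at 12 h and 167 and 175 at 24 h. SMG8, which restrains the kinase SMG1, had 29.1 and 28.7 CPM at 0 h, 3.77 and 3.84 at 6 h, 4.42 and 4.68 at 12 h and 5.65 and 5.31 at 24 h. PUM2, a Pumilio gene whose own 3′ UTR holds the motif shown above, fell. It had 67.3 and 70.1 CPM at 0 h, 12.3 and 12.6 at 6 h, 9.21 and 9 at 12 h and 10.5 and 7.44 at 24 h. FBL and NOP56 are the targets of the siRNAs in the other courses. FBL had 349 and 339.8 CPM at 0 h, 491 and 473 at 6 h, 487 and 465 at 12 h and 312 and 308 at 24 h. It was higher at 6 h by 0.48 ± 0.06 (-0.30 with ribosomal protein mRNAs held level) and lower at 24 h by -0.15 (adjusted p = 0.023). The 24 h call was lost without any 1 of the libraries of 0 h or 24 h (adjusted p between 0.059 and 0.17) and with DESeq2 (adjusted p = 0.94). NOP56 had 223 and 221 CPM at 0 h, 171 and 178 at 6 h, 157 and 148 at 12 h and 170.4 and 163 at 24 h. The change was -0.42 ± 0.06 at 24 h.

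Of 50 G2/M genes, 29 were lower and 14 higher at 6 h and 40 lower and 8 higher at 24 h, with medians of -0.35 and -0.91. The shares were 58% lower and 28% higher at 6 h and 80% lower and 16% higher at 24 h, beside 37.7% and 34.2% at 6 h and 45.6% and 35% at 24 h over all genes. Of 52 S phase genes, 26 were lower and 21 higher at 6 h and 31 lower and 17 higher at 24 h, with medians of -0.23 and -0.56. These shares, 50% lower and 40.4% higher at 6 h and 59.6% lower and 32.7% higher at 24 h, lay nearer to those of all genes. CCNA2, cyclin A2, had 153 and 144 CPM at 0 h, 55.3 and 54.8 at 6 h, 27.1 and 28.9 at 12 h and 21.8 and 23.5 at 24 h. DTL, a substrate receptor that acts in S phase, had 119.5 and 117 CPM at 0 h, 34.3 and 35.8 at 6 h, 17.9 and 20.6 at 12 h and 14.8 and 14.1 at 24 h. CKS1B, a partner of cyclin-dependent kinases, had 126 and 129 CPM at 0 h, 205 and 195 at 6 h, 281 and 258 at 12 h and 326 and 292 at 24 h. Its relative CKS2 had 71.8 and 70.1 CPM at 0 h, 23.4 and 25.2 at 6 h, 14.3 and 11.3 at 12 h and 11.8 and 13.3 at 24 h. The 2 genes moved in opposite directions. Of 19 replication-dependent histone genes tested, 4 were higher and 1 lower at 6 h and 11 higher and none lower at 24 h, with a median of 1.03 at 24 h that was 0.52 with total counts alone and close to 0 with ribosomal protein mRNAs held level. The 1 lower at 6 h was HIST1H4C, at -1.01 ± 0.37, a call lost without replicate 1 of 0 h (adjusted p = 0.13) or either library of 6 h (0.078 and 0.085), and with DESeq2 (0.12). HIST1H2BK had 39.8 and 39.9 CPM at 0 h, 62 and 59.1 at 6 h, 74.7 and 71.7 at 12 h and 93.6 and 81.4 at 24 h. Most histone mRNAs of this class end in a stem-loop and lack a poly(A) tail.

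Stress and sterol pathways held both courses, as did all genes tested. Of all genes, 34.2% were higher and 37.7% lower at 6 h and 35% higher and 45.6% lower at 24 h. Of 29 genes of the integrated stress response, 14 were higher and 13 lower at 6 h and 13 higher and 13 lower at 24 h. TRIB3, a pseudokinase that restrains this response, had 27.1 and 24.7 CPM at 0 h, 5.26 and 6.38 at 6 h, 3.03 and 3.39 at 12 h and 3.19 and 3.63 at 24 h. SESN2, an inhibitor of mTORC1, changed by -2.92 ± 0.10 at 6 h. PHGDH, the first enzyme of serine synthesis, had 349 and 350.5 CPM at 0 h, 552 and 530.0 at 6 h, 784 and 728 at 12 h and 1052 and 953 at 24 h. Of 23 genes of the endoplasmic reticulum stress response, 11 were higher and 8 lower at 6 h and 10 higher and 12 lower at 24 h, among them HERPUD1, of the degradation complex, which changed by -2.54 ± 0.09 at 24 h and the chaperone HYOU1, which changed by 1.64 ± 0.06. Of 24 genes of cholesterol synthesis, 11 were higher and 8 lower at 6 h and 12 higher and 10 lower at 24 h. SQLE, squalene epoxidase, had 122 and 124 CPM at 0 h, 36.9 and 39.4 at 6 h, 16.3 and 18.6 at 12 h and 14.5 and 14 at 24 h. DHCR7, which catalyses the last step, had 145 and 149.8 CPM at 0 h, 229.6 and 217 at 6 h, 321 and 294 at 12 h and 448 and 432 at 24 h. SREBF2, the pathway's transcription factor, changed by 1.55 ± 0.06 at 24 h.

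The siFBL and siNOP56 courses were set against siCTRL in 1 fit of all 24 HEK293T libraries, in which 14939 genes were tested and all differences share the siCTRL libraries. At 6 h and 24 h against 0 h, 44.1% and 60.7% of these genes were called in siCTRL, 42.9% and 59.9% in siFBL and 41.9% and 59.5% in siNOP56. No slope over the hours (0% of genes) differed from siCTRL at an edgeR adjusted p under 0.05. For siCTRL minus siFBL 449 genes had an unadjusted p under 0.05 and DESeq2 called 6, and for siCTRL minus siNOP56 197 genes had one and DESeq2 called 3. With 1 mean per siRNA and hour, an alternative added after values had been seen, the change at 24 h against 0 h differed from siFBL in 1 gene (0.00669%, and 1029 at an unadjusted p under 0.05) and from siNOP56 in none (0%, and 543). In this fit 25 values of genes named above kept their direction and lost their call. They include, at 6 h, LDHA (adjusted p = 0.22), FBL (0.12) and SLIRP (0.16), at 24 h, RPL11 (0.094) and NOP56 (0.20), and between 24 h and 6 h, CTCF (0.19), JUNB (0.42), SNAI2 (0.26) and ATF3 (0.20). At 24 h against 0 h the respiratory chain genes had a median of 1.3 in siCTRL, 1.29 in siFBL and 1.35 in siNOP56. The KRAB zinc finger genes had -1.26 in siCTRL, -1.28 in siFBL and -1.27 in siNOP56. The short-lived mRNAs had -1.55 in siCTRL, -2.38 in siFBL and -1.87 in siNOP56, and the proteasome genes had 0.004 in siCTRL, 0.52 in siFBL and 0.38 in siNOP56. Differences between these medians were not tested. A p that misses the threshold does not show that the courses are alike.

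The 1 gene called was PLCG2, a phospholipase of receptor signalling. It had 12.7 and 12.9 CPM at 0 h, 18.2 and 17.6 at 6 h, 26.8 and 26.4 at 12 h and 36.8 and 32.8 at 24 h with siCTRL. With siFBL it had 11.4 and 7.24 CPM at 0 h and 111 and 181 CPM at 24 h, and with siNOP56 9.57 and 9.30 CPM at 0 h and 66.4 and 70.2 CPM at 24 h. The change at 24 h against 0 h in siCTRL minus that in siFBL was -2.45 (adjusted p = 0.0152).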

How the data were processed

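Poly(A) RNA of HEK293T cells with siCTRL was sequenced at 0, 6, 12 and 24 h, 2 libraries each. The authors deposited whole-number read counts per gene symbol without normalisation. The submitters' processing notes name hg38, GRCh38.p13 and hg19 without roles. No aligner, counter or strand setting is given in the sources used here. From these counts, edgeR 4.0.16 in R 4.3.3 computed TMM factors, kept genes with filterByExpr by hour (minimum count 10) and ran quasi-likelihood tests with 1 mean per hour (4 residual degrees of freedom) or a slope (6), Benjamini-Hochberg adjusted p under 0.05. The slopes of siCTRL, siFBL and siNOP56 were compared over 24 libraries. Tests of slopes and of 24 h against 0 h were checked on simulated counts. In these few genes changed, in both directions alike and along a straight line. That setting does not check the scaling or the other contrasts. Same-numbered libraries did not deviate together (correlations of replicate differences -0.003 to 0.033), so no block was used. Alternatives were other scalings, filters, DESeq2 1.42.0, left-out libraries and a replicate block. UTRs came from GENCODE 29, by symbol. Members and lists were chosen with earlier results of these data known. Named genes are those with the steepest slopes, overall and in each list, the largest 6 h changes and rate differences, and fixed genes, unless said otherwise. A few genes that this rule names are not reported here. The other libraries of the series were not used here.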

Additional observations from a re-analysis of the deposited data

Results flagged for a closer look

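PLCG2 was the 1 gene whose change at 24 h against 0 h differed between siCTRL and siFBL, by -2.45 on the log2 scale (siCTRL minus siFBL, edgeR adjusted p = 0.0152), in a fit chosen after values had been seen. It was higher at 24 h than at 0 h in both replicates of the siCTRL, siFBL and siNOP56 courses, with 36.8 and 32.8 CPM at 24 h in siCTRL, 111 and 181 CPM in siFBL and 66.4 and 70.2 CPM in siNOP56. Its slope over the hours differed from siFBL with DESeq2 (adjusted p = 8.9e-05) but not with edgeR (adjusted p = 0.19).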

How the results depend on the processing

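Leaving out 1 library at a time gave between 6767 and 9012 genes called for the slope, 9387 to 10757 at 6 h against 0 h, 10389 to 11228 at 12 h, 10834 to 11842 at 24 h, 7718 to 9679 for the rate difference, 6713 to 8241 between 24 h and 6 h, and 0 for both slope differences between siRNAs. Of the calls made with all 8 libraries, 89.5% to 99.9% kept call and sign at 6 h, 92.3% to 99.8% at 24 h and 75.3% to 97.1% for the slope. Without both 12 h libraries, a setting added after values had been seen, 7872 genes were called for the slope, 10713 at 6 h and 11751 at 24 h. The replicate numbers did not pair the libraries, and with a replicate block 8231 genes were called for the slope, 10499 at 6 h and 11662 at 24 h, and 2 slopes differed from siFBL (2 lower, none higher).

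Calls of higher genes depended on the scaling. With total counts alone 2293 genes were called higher for the slope, 3023 at 6 h, 3136 at 12 h, 3139 at 24 h, 2879 for the rate difference and 2164 between 24 h and 6 h (6047 lower), and 1 slope differed from siFBL (1 lower). With ribosomal protein mRNAs held level 840 were higher and 8661 lower for the slope, 145 and 10476 at 6 h, 306 and 10970 at 12 h, 1150 and 10512 at 24 h, 141 and 9368 for the rate difference, and 1710 higher between 24 h and 6 h. In the fit of all 24 libraries 6589 genes were called at 6 h (3107 higher, 3482 lower), 4284 for the rate difference (1821 higher, 2463 lower) and 2958 between 24 h and 6 h (1242 higher, 1716 lower), and 25 values of named genes kept their direction but lost their call. DESeq2 called 6 slopes different from siFBL (1 higher, 5 lower) and 3 from siNOP56 (1 higher, 2 lower), SNORD44, SNORD36C and RITA1 in both. Its differences from siFBL and siNOP56 were 5.79 and 5.76 log2 per hour for SNORD44 and -3.03 and -3.70 for SNORD36C. These are too large over 24 h to be read as changes in level, and edgeR called neither gene (adjusted p = 0.9999 against siFBL for both). With 1 mean per siRNA and hour 1 change at 24 h differed from siFBL (1 lower). These scalings differ in the level taken as fixed, and the cause of the other differences was not tested.

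Changes that turned sign with ribosomal protein mRNAs held level were, at 6 h against 0 h, ATF4 -0.31, FBL -0.30, SLIRP -0.30, RPL23 -0.17, RPL7A -0.19, RPS26 -0.030, HOXD9 -0.57, ZNF621 -0.61 and ZNF738 -0.52. At 24 h they were ACTB -0.023, EGR1 -0.15, HES4 -0.33, ZFP36 -0.45, FOSB -0.37, GLI1 -0.58, HOXB9 -0.76, HOXC4 -0.73, ZNF738 -0.38, METTL3 -0.88, SKIV2L -0.67, EXOSC5 -0.74 and C1D -0.78, and between 24 h and 6 h MYC -0.065. Of the list medians given in the text, those that turned were, at 6 h, the respiratory chain -0.037, glycolysis -0.065, the citric acid cycle -0.18, the cytoskeleton -0.33, the proteasome -0.47, translation factors -0.42, synthetases -0.41, nonsense-mediated decay -0.66, histones -0.44, polymerase II -0.74 and interferon genes -0.52. At 24 h they were ribosomal proteins -0.25, the citric acid cycle -0.20, the cytoskeleton -0.23, translation factors -0.96, synthetases -0.55, nonsense-mediated decay -0.96, histones -0.005 and noncoding snoRNA hosts -0.40. Cholesterol synthesis genes, with medians of 0.16 at 6 h and 0.23 at 24 h, turned to -0.62 and -0.81, and genes of the integrated stress response, with 0.11 and 0.09, to -0.67 and -0.95. Calls lost under this scaling, with the direction kept, were those of ENO2 and RPL11 at 6 h (adjusted p = 0.32 and 0.46), of GAS5 (0.92), NEAT1 (0.51), NHP2 (0.19), TTC37 (0.38) and HIST1H2BK (0.44) at 24 h, and of ZNF331 at both hours (0.091 and 0.12).

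With total counts alone the changes that turned were HOXD9 -0.048 and ZNF621 -0.087 at 6 h, GLI1 -0.052, HOXB9 -0.23, HOXC4 -0.20, METTL3 -0.35, SKIV2L -0.14, EXOSC5 -0.21 and C1D -0.25 at 24 h, and MYC -0.065 between 24 h and 6 h. Of the medians given, those that turned were nonsense-mediated decay -0.13 and polymerase II -0.21 at 6 h, and translation factors -0.44, synthetases -0.026 and nonsense-mediated decay -0.43 at 24 h. Cholesterol synthesis turned to -0.10 at 6 h and -0.28 at 24 h, and the integrated stress response to -0.15 and -0.42. ZNF738 lost its call at 6 h (adjusted p = 0.95) and 24 h (0.21), and METTL3 lost its call with no filter (0.12) and among genes with at least 5 CPM on average (0.20). Values near 0 turned under other settings. GYG1 at 6 h was 0.075 with upper quartile factors, 0.067 with relative log expression factors and with DESeq2 and 0.078 in the fit of all 24 libraries. With upper quartile and with relative log expression factors the medians at 6 h were 0.0935 and 0.0853 for all genes, 0.0883 and 0.0801 for mitochondrial ribosomal proteins and 0.0371 and 0.0291 for noncoding snoRNA hosts, and at 24 h 0.0311 and 0.0639 for the proteasome and 0.0491 and 0.0812 for interferon genes. Among genes with at least 5 CPM on average the medians were 0.0037 for all genes and -0.005 for polymerase II genes at 6 h and 0.75 for interferon genes at 24 h, and with no filter they were 0 for all genes and 0 for interferon genes at 6 h.

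With 2 libraries an hour and nothing stating separate cultures, the p-values measure only the spread between these libraries. Genes near the count minimum, among them TERC and SCARNA2 at 0 h, have fold changes that depend on few counts.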

Other observations

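Genes of the p53 pathway fell more often than they rose. Of 31 tested targets of p53, 8 were higher and 20 lower at 6 h (edgeR adjusted p under 0.05), with a median log2 change of -0.63 beside -0.004 over all genes tested, and 8 were higher and 20 lower at 24 h, with -1.03 beside -0.188. Among 16 splicing factors of the serine and arginine rich (SR) family, which bind exonic sequence and help to define exons, 2 were higher and 10 lower at 6 h, with a median of -0.18, and 3 were higher and 13 lower at 24 h, with -0.82. Subunits of RNA polymerase II and general transcription factors went both ways, 19 of 47 higher and 19 lower at 6 h and 18 higher and 26 lower at 24 h, with medians of 0.05 and -0.29. Of 25 genes of the interferon response, 9 were higher and 5 lower at 6 h and 10 higher and 8 lower at 24 h, with medians of 0.26 and -0.06. Over all 14390 genes tested, 34.2% were higher and 37.7% lower at 6 h, and 35% were higher and 45.6% lower at 24 h.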
